A study of Rattus norvegicus with 9 samples.

Results

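Class II histocompatibility molecules and their chaperone, the invariant chain Cd74, were followed here in the hypothalamus of 9 male rats aged 13 weeks, 1 array per rat. The set held every probe set whose platform annotation gave 1 of the single symbols RT1-Da, RT1-Db1, RT1-Ba, RT1-Bb or Cd74. This gave 10 probe sets for 5 genes, out of 31042 probe sets and 14217 named genes. The noodle-diet group was 4 rats fed instant noodles with their seasonings (noodle-diet rats 1, 4, 7 and 13), and the control-diet group was 5 rats fed the same diet without the seasonings (control-diet rats 2, 5, 8, 11 and 14). By weight 30% of both diets was noodle, and 26% of the energy came from fat. Feeding was paired at about 60 g of diet per kg body weight per day, for 30 days by one label and 4 weeks by another. That the seasonings set the diets apart is stated in the series description and not in the treatment text, which the groups share. For the strain of the rats, no statement was found in these sources.

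A class II molecule is a pair of an alpha and a beta chain that carries peptides from ingested material to the cell surface, where CD4+ T cells read them. In the rat, RT1-Da and RT1-Db1 encode the alpha and beta chains of the molecule called RT1.D, and RT1-Ba and RT1-Bb those of RT1.B. The invariant chain occupies the groove of the new molecule in the endoplasmic reticulum, brings it to the endosome and is then cut away by proteases. In the brain, class II is carried mainly by macrophages of the meninges and vessels and by activated microglia.

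The genes of the 4 class II chains lie next to one another on rat chromosome 20, in the order RT1-Da, RT1-Db2, RT1-Db1, RT1-Ba, RT1-Bb, and Cd74 lies on chromosome 18. Their promoters are shown because class II chains and the invariant chain are known to share a control module bound by the RFX and NF-Y complexes and held active by the coactivator Ciita. Each stretch is 85 bases of the RefSeq promoter in the GRCr8 build, 5′ to 3′ on the gene's strand. Capitals mark the X-box motif ACNGATG where it was found, then the Y-box motif ATTGG, which in Cd74 reads in reverse complement as CCAAT.
Cd74 (chr18:56526957-56527041, plus strand): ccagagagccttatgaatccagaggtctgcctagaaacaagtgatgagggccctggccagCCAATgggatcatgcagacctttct
RT1-Da (chr20:4515306-4515390, plus strand): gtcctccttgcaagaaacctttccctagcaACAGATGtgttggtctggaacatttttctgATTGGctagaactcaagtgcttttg
RT1-Db1 (chr20:4560218-4560302, minus strand): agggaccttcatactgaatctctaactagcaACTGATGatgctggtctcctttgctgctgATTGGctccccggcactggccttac
RT1-Ba (chr20:4576954-4577038, plus strand): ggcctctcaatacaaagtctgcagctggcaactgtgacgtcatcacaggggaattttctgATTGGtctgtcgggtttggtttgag
RT1-Bb (chr20:4604155-4604239, minus strand): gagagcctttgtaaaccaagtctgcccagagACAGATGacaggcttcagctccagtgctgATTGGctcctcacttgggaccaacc
In the window of 250 bases before to 50 after the start, RT1-Da, RT1-Db1 and RT1-Bb each had the X-box motif followed by the Y-box motif on the gene's strand, with 23, 22 and 22 bases between them. RT1-Ba had the Y-box motif and no match to the string ACNGATG, and Cd74 had only a match to the Y-box motif, on the opposite strand. A missing match does not show that a promoter lacks an X box, because no other form of it was searched. Of 27457 promoters searched on both strands, 9.96% held the X-box motif, 37.7% held the Y-box motif and 0.408% held the Y-box motif within 40 bases after the other. The motifs were picked after these sequences had been read. A match is a description of letters, and binding was not measured.

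The 9 arrays had medians between 6.777 and 6.785 on the log2 scale, and over the 1223 variable probe sets defined below they correlated with each other at 0.948 to 0.987. Each array's median correlation with the other 8 lay between 0.962 and 0.980, lowest for control-diet rat 8. The tissue label was checked on neuropeptide genes of the hypothalamus: Pmch, which encodes melanin-concentrating hormone, lay between 11.85 and 12.37, and Avp, which encodes vasopressin, between 10.49 and 11.84. In these deposited values 29759 probe sets had a spread under 0.01 log2 units between the highest and lowest rat, and are called compressed here. Only 1223 ranged over more than 0.05, and are called variable. Of the 10 probe sets of the class II set, 7 were variable, and all 5 genes had at least 1 of them. The remaining 3 were compressed, so a difference in them cannot be read as a fold change.

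Across the rats, Cd74, RT1-Da, RT1-Db1 and 1 probe set of RT1-Ba went up and down together, over ranges of 2.01-fold to 3.14-fold, and the same 4 rats were highest on each of them. The diets did not separate: noodle-diet and control-diet values overlapped on every variable probe set. Another pattern joined a different RT1-Ba probe set with 1 RT1-Bb probe set. The other RT1-Bb probe set divided the rats into a low and a high set. All values below are deposited log2 levels in the order of rats given above, and since probe sets differ in brightness, levels are compared only between rats and not between probe sets. In bulk tissue, fewer cells of a type and less RNA per cell cannot be told apart.

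Cd74, the invariant chain, stood at 8.34, 7.40, 7.52 and 7.82 in noodle-diet rats 1, 4, 7 and 13, against 8.53, 8.69, 8.19, 7.10 and 7.04 in control-diet rats 2, 5, 8, 11 and 14. Control-diet rats held both the 2 highest and the 2 lowest values, and every noodle-diet rat lay between them. The range of 1.65 log2 units was wider than that of 99.9% of all probe sets. The mean was 7.77 ± 0.42 in noodle-diet rats (SD, n = 4) and 7.91 ± 0.79 in control-diet rats (SD, n = 5). The difference, noodle diet minus control diet, was -0.14 with a standard error of 0.42 and a 95% interval of -1.11 to 0.83, at a limma adjusted p of 1.0.

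RT1-Da, the alpha chain of RT1.D, stood at 7.53, 6.68, 6.58 and 7.02 in the noodle-diet rats and at 7.21, 7.80, 7.32, 6.42 and 6.32 in the control-diet rats. Control-diet rat 5 was highest and control-diet rats 11 and 14 lowest, as for Cd74. Means were 6.95 ± 0.43 in noodle-diet rats and 7.01 ± 0.63 in control-diet rats, a difference of -0.061 (interval -0.88 to 0.76).

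RT1-Db1, the beta chain of RT1.D, had 2 probe sets designed from the same sequence record. The probe set 1370383_s_at stood at 7.08, 6.24, 6.50 and 6.67 in the noodle-diet rats and at 6.98, 7.09, 6.84, 6.27 and 6.09 in the control-diet rats. Control-diet rat 5 and noodle-diet rat 1 were again at the top and control-diet rat 14 at the bottom, and the groups overlapped. Means were 6.62 ± 0.35 in noodle-diet rats and 6.65 ± 0.45 in control-diet rats, a difference of -0.034 (interval -0.64 to 0.57). The other, 1370382_at, was compressed at 6.03 in all 9 rats. The ending _s_at marks probes that can match several related transcripts, and RT1-Db2 is the neighbouring gene, so this probe set may read more than 1 beta chain.

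RT1-Ba, the alpha chain of RT1.B, had 4 probe sets, 2 of them variable. The probe set 1370822_at stood at 6.96, 6.45, 6.54 and 6.72 in the noodle-diet rats and at 6.77, 7.39, 7.15, 6.27 and 6.39 in the control-diet rats. Control-diet rats 5 and 8 were highest and control-diet rats 11 and 14 lowest, with the noodle-diet rats between. The second, 1377334_at, stood at 7.09, 6.40, 5.92 and 6.18 in the noodle-diet rats and at 6.89, 6.75, 5.81, 5.74 and 5.93 in the control-diet rats. Here noodle-diet rat 1 was highest, and control-diet rat 8, near the top on the first probe set, was next to lowest. On this probe set 4 rats lay under the 20th percentile of their arrays (6.06 to 6.07), and with values held at that floor the diet difference was 0.069. Noodle-diet and control-diet means were 6.67 ± 0.23 and 6.79 ± 0.48 on the first probe set, and 6.40 ± 0.50 and 6.22 ± 0.55 on the second. The difference was -0.13 (interval -0.70 to 0.45) on the first and 0.18 (interval -0.61 to 0.96) on the second, so their signs were opposite and both intervals spanned 0. The 2 compressed RT1-Ba probe sets, 1381593_x_at and 1392334_at, came from a single sequence record and lay at 7.10 and 7.34 in every rat.

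RT1-Bb, the beta chain of RT1.B, had 2 probe sets, both variable. The probe set 1371033_at stood at 5.36, 5.47, 6.45 and 6.72 in the noodle-diet rats and at 5.30, 7.39, 7.70, 6.19 and 5.35 in the control-diet rats. It had the widest range of the 10 probe sets, 2.40 log2 units, and its low rats came from both diets. The low 4 lay under the 20th percentile of their arrays (6.06 to 6.07), and signal over background is not known, so no fold is given. The second, 1371065_at, stood at 6.57, 6.33, 6.11 and 6.21 in the noodle-diet rats and at 6.64, 6.32, 6.04, 6.17 and 6.24 in the control-diet rats, over 0.61 log2 units. Control-diet rat 8 was highest on the first and lowest on the second. Noodle-diet and control-diet means were 6.0 ± 0.69 and 6.38 ± 1.12 on the first, a difference of -0.38 (interval -1.80 to 1.03), and 6.30 ± 0.20 and 6.28 ± 0.23 on the second, a difference of 0.023 (interval -0.30 to 0.34).

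**Figure D1:**
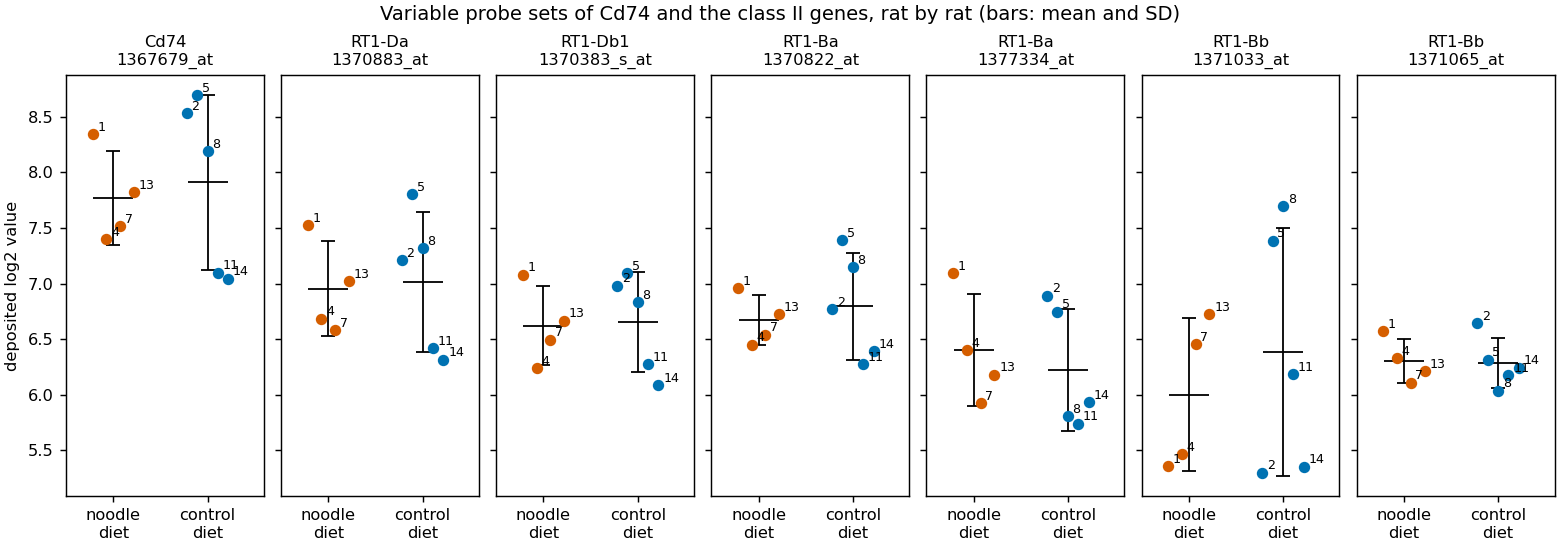
Deposited log2 value (vertical axis) of the 7 variable probe sets, with 1 numbered point per rat, noodle diet left and control diet right in each panel, and bars for mean and SD (n = 4 and n = 5). The groups overlap in every panel, and the vertical position of a panel's points is not comparable with another panel's.

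The diet comparison was fitted with limma on all 31042 probe sets, to ask whether the noodle seasonings changed expression. Of the 10 probe sets of the class II set, 0 passed at an adjusted p under 0.05, where 0% of all probe sets passed. At an unadjusted p under 0.05, 0 of the 10 were called, against 2.29% of all probe sets. In 0 of the 10 did the groups not overlap, against 0.567% of all. Of the 7 variable probe sets, 5 had a lower mean and 2 a higher mean on the noodle diet, with unadjusted p from 0.547 to 0.898, where all 1223 variable probe sets had 588 lower and 635 higher. The intervals are wide, and a p that misses the threshold does not show that the diets were alike: for Cd74 the interval runs from 1.11 log2 units lower to 0.83 higher. Leaving out single rats turned the sign of the difference in 6 of the 7, as without control-diet rat 5 (Cd74 0.056, RT1-Da 0.14) or noodle-diet rat 1 (RT1-Ba 1377334_at -0.056).

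To ask which chains moved in the same animals, the 6 variable probe sets without separate sets of rats were paired in all 15 ways over the 9 rats. Pairs among Cd74, RT1-Da, RT1-Db1 and RT1-Ba 1370822_at were all close. Pearson r ran from 0.87 to 0.97 and Spearman rho from 0.90 to 0.97 in these 6 pairs, with exact permutation p from 9.4e-05 to 0.00294 for r and from 0.000165 to 0.00203 for rho. After Benjamini-Hochberg adjustment over the 15 pairs the p ranged from 0.00101 to 0.00630 for r and from 0.00248 to 0.00435 for rho. With the 2 rats farthest from the median left out, r was 0.84 to 0.96 over the other 7. Within diets, on deviations from the diet means, r was 0.88 to 0.98.

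Set against Cd74, r was 0.96 for RT1-Da, 0.97 for RT1-Db1 and 0.89 for RT1-Ba 1370822_at. Per log2 unit of Cd74, RT1-Da moved by 0.80, RT1-Db1 by 0.60 and RT1-Ba by 0.54. Control-diet rats 5, 2 and 8 and noodle-diet rat 1 took the top 4 places on each of the 4 probe sets, and noodle-diet rat 13 came next on each. The neighbours in this order often differed by little: for Cd74, control-diet rats 11 and 14 lay at 7.10 and 7.04. The widest gap in the Cd74 order was 0.37, between control-diet rat 8 and noodle-diet rat 13.

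**Figure D2:**
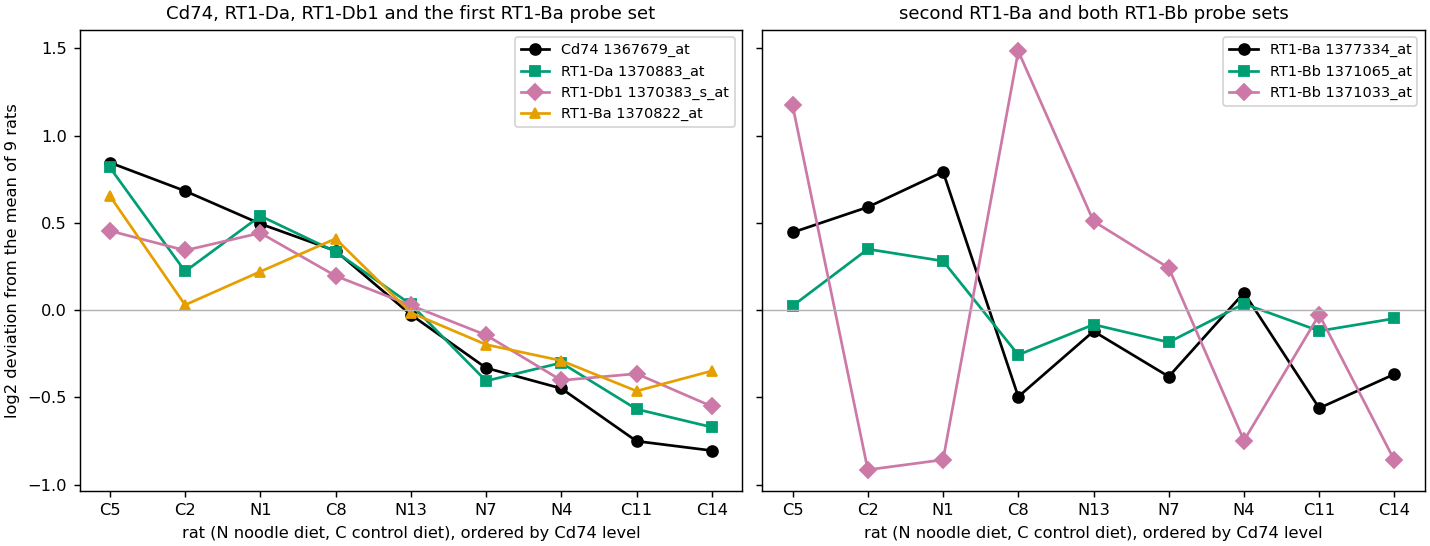
Deviation of each probe set from its own mean over 9 rats, in log2 units (vertical axis), with rats ordered by Cd74 level (N noodle diet, C control diet) and lines joining values of 1 probe set. In the left panel Cd74, RT1-Da, RT1-Db1 and RT1-Ba 1370822_at fall together from control-diet rat 5 to control-diet rats 11 and 14, and in the right panel the other RT1-Ba and both RT1-Bb probe sets take other orders.

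The 2 variable probe sets of RT1-Ba, although annotated to 1 gene, were only loosely related (r 0.48, rho 0.48, exact permutation adjusted p 0.241), and r was 0.20 without the 2 farthest rats. This rested on control-diet rat 8: without it r was 0.74, at an exact permutation adjusted p of 0.0400. RT1-Ba 1377334_at was instead close to RT1-Bb 1371065_at (r 0.90, rho 0.90, exact permutation adjusted p 0.00174), and without noodle-diet rat 1 and control-diet rat 2, the highest on both, r was 0.78 over the other 7 (exact permutation p 0.0379). Between this pair and the 4 probe sets above, 0 of 8 relations passed, with r from 0.14 to 0.72. The closest was Cd74 with RT1-Ba 1377334_at, at an adjusted p of 0.0682 in the exact permutation test over 9 rats. In total 7 of 15 pairs passed over all 9 rats. Without control-diet rat 8, RT1-Ba 1377334_at had r of 0.88 with Cd74, 0.86 with RT1-Da and 0.84 with RT1-Db1. Their exact permutation adjusted p was 0.0151, 0.0151 and 0.0247, so the separation of this probe set rested on that rat. Its r with RT1-Bb 1371065_at was 0.89 there. RT1-Bb 1371065_at still passed with none of the 4 probe sets (exact permutation adjusted p 0.0873 to 0.301). On RT1-Ba 1377334_at 4 rats lay under the 20th percentile of their arrays, and on RT1-Bb 1371065_at control-diet rat 8 did. The correlations were not rerun with values held at that floor. High values were common on these arrays: 14.7% of all 1223 variable probe sets had an r above 0.8 with Cd74, and the permutation p tests against no relation, not against that share. Whether the probe sets of RT1-Ba read different transcripts or alleles was not tested, because probe sequences were not used here.

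**Figure D3:**
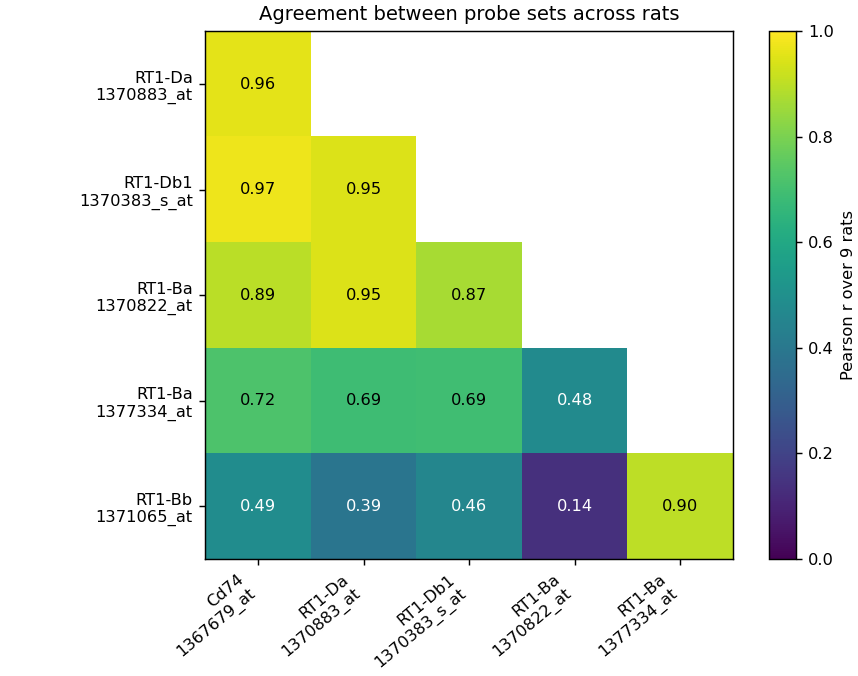
Pearson r over 9 rats for each pair of 6 variable probe sets, as colour (scale 0 to 1) and number. The block of Cd74, RT1-Da, RT1-Db1 and RT1-Ba 1370822_at lies at 0.87 to 0.97, and the other high value, 0.90, joins RT1-Ba 1377334_at to RT1-Bb 1371065_at.

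The RT1-Bb probe set 1371033_at was kept out of the paired correlations as the probe set of widest range, after its values had been seen to fall into 2 sets. No rule for such sets was applied to the others. The largest gap took 30.1% of the range here and 40.5% on RT1-Bb 1371065_at, where noodle-diet rat 1 and control-diet rat 2 stood above the rest. Noodle-diet rats 1 and 4 and control-diet rats 2 and 14 lay within 0.17 log2 units of each other, at 5.30 to 5.47. The other 5 rats lay between 6.19 and 7.70, above a gap of 0.72. The low set thus held rats that were high for Cd74 (noodle-diet rat 1, control-diet rat 2) and a rat that was lowest for it (control-diet rat 14).

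The same 4 rats were low on a probe set of a class I gene, RT1-CE16, whose product presents peptides to CD8+ T cells. RT1-CE16 1370463_x_at stood at 5.97, 5.86, 6.94 and 7.06 in the noodle-diet rats and at 5.91, 7.08, 7.88, 7.09 and 5.88 in the control-diet rats. Its low 4 rats spanned 0.12 log2 units, and a gap of 0.97 separated them from the other 5. On another class I probe set, RT1-S3 1371123_x_at, these 4 rats lay at 6.59 to 7.09 and the other 5 at 7.13 to 7.50, with a gap of 0.048. On both variable RT1-Ba probe sets the 2 sets of rats overlapped. On RT1-Bb 1371065_at, annotated to the same gene, these 4 rats lay mostly higher, at 6.24 to 6.64 against 6.04 to 6.32. Control-diet rat 2 and noodle-diet rats 1 and 4 were highest there, and only control-diet rat 14 fell among the others. The correlation between the 2 RT1-Bb probe sets was not computed. On 3 further probe sets of the chromosome the same 4 rats were highest, each with a gap of 0.03 log2 units or less: RT1-T24-3 (7.17 to 7.48, others up to 7.15), Marcks (9.43 to 9.79, others up to 9.40) and Pfdn6 (9.17 to 9.22, others up to 9.14). The rats were set apart by the measured values, so no test was made. RT1-CE16, RT1-S3 and the 3 further probe sets were picked for a strong Pearson r, of either sign, with RT1-Bb 1371033_at. Such a choice favours probe sets that split the same 4 rats from the others. The share of all probe sets with this split was not counted, so the small gaps cannot be judged. The ending _x_at marks probes that can bind unrelated or related transcripts, and class I genes form a family of near-identical copies, so neither the gene read nor the allele is certain.

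**Figure D4:**
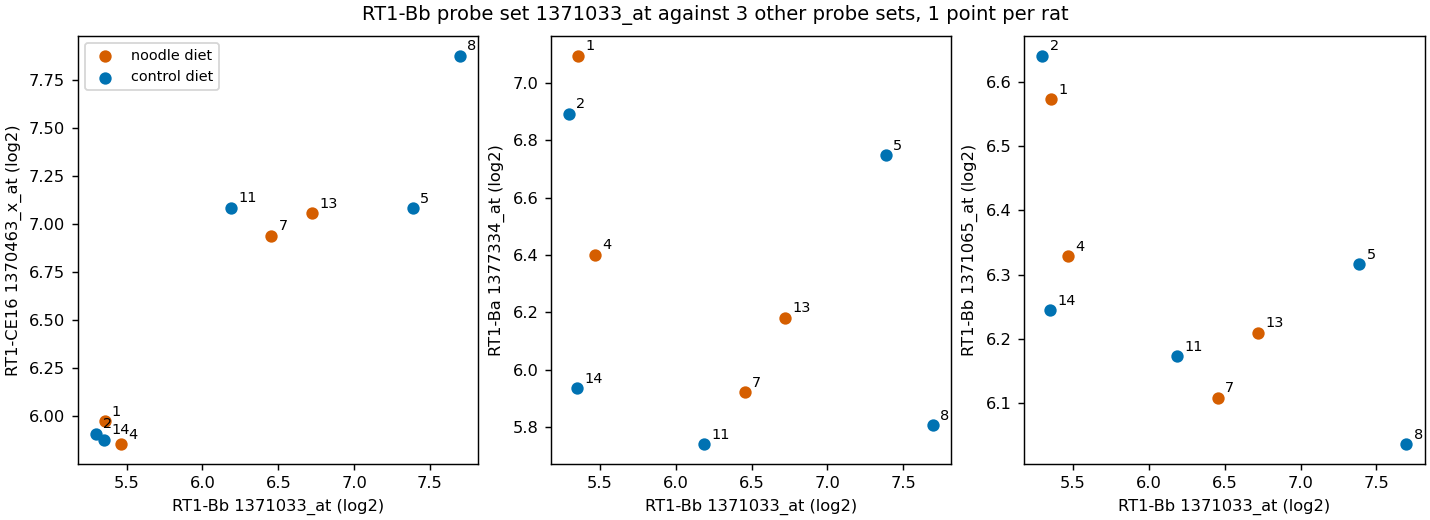
RT1-Bb 1371033_at (horizontal axis, log2) against RT1-CE16 1370463_x_at, RT1-Ba 1377334_at and RT1-Bb 1371065_at (vertical axes, log2), with 1 numbered point per rat, noodle diet in orange and control diet in blue. In the left panel rats 1, 2, 4 and 14 form a tight group low on both axes, under the 20th percentile of the arrays on each. In the middle panel they lie at 5.93 to 7.09 and the other 5 rats at 5.74 to 6.75. In the right panel they lie at 6.24 to 6.64 and the other 5 at 6.04 to 6.32, so mostly higher with a small overlap.

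The invariant chain was then set against each chain within a rat, as the log2 difference Cd74 minus chain, whose size depends on probe brightness and is read only between rats. Cd74 minus RT1-Da was 0.82, 0.72, 0.94 and 0.80 in the noodle-diet rats and 1.32, 0.89, 0.87, 0.68 and 0.73 in the control-diet rats. Control-diet rat 2 stood highest, with more Cd74 for its RT1-Da than the other 8. Means were 0.82 ± 0.09 in noodle-diet rats and 0.90 ± 0.25 in control-diet rats (SD, n = 4 and n = 5), a difference of -0.079 (exact permutation p 0.706, 2-sided, over all splits of the rats). Over the 6 class II probe sets the difference between diets ran from -0.32, for RT1-Ba 1377334_at, to 0.24, for RT1-Bb 1371033_at, and 0 of 6 passed, with exact permutation adjusted p from 0.857 to 0.960. A difference between diets in the balance of invariant chain and class II chains was not detected with these 9 rats.

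Other genes of the class II pathway were read from lists of known members. Of 15 listed genes for peptide loading and processing, 11 were measured and 0 passed, 1 of them variable. RT1-DMa and RT1-DMb, which exchange the invariant chain's remnant for peptide, and Ctss, the protease that trims the invariant chain, were compressed. Only Sppl2a, which cleaves the last membrane-bound piece of Cd74, was variable, at 6.68 ± 0.18 in noodle-diet rats and 6.58 ± 0.21 in control-diet rats, and its r with Cd74 was -0.29. Of 12 regulators of class II transcription 10 were measured, and 0 were variable, Ciita included. The Ciita probe set ranged over 0.000696 log2 units and gives no reading of that coactivator between rats.

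Among 19 measured genes of the interferon gamma response, the cytokine signal that induces class II, 2 were variable and 0 passed. B2m, the light chain of class I, was 11.30 ± 0.11 in noodle-diet rats and 11.27 ± 0.10 in control-diet rats, and Psmb9, an immunoproteasome subunit, was 6.98 ± 0.10 in both groups. Their r with Cd74 over the 9 rats was 0.81 and 0.86. Of 6 measured costimulation genes, 0 passed, and the variable one, Cd83, a surface protein of mature antigen-presenting cells, was 9.29 ± 0.09 in noodle-diet rats and 9.34 ± 0.07 in control-diet rats, with r of -0.08.

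Likeness to each member was described as Pearson r over the 9 rats, among 929 variable named probe sets outside the set. These points share their arrays, and no p is given. The genes most like Cd74 were Scara3 (0.97), Aldh2, Selenbp1 and Cxcl16 (each 0.96), Tyrobp (0.95), Cp and Tgfbi (0.94 each) and Fbln1 (0.94). Scara3 is a scavenger receptor, Cxcl16 a membrane-bound chemokine, Tyrobp a signalling adaptor of myeloid cells, Cp the ferroxidase ceruloplasmin, and Tgfbi and Fbln1 matrix proteins. Scara3 stood at 7.06, 6.50, 6.43 and 6.76 in the noodle-diet rats and at 7.12, 7.04, 6.86, 6.46 and 6.30 in the control-diet rats, so rats 1, 2, 5 and 8 were its top 4 as well. The lowest were Nefl, a neurofilament subunit (-0.86), Tac3, the neurokinin B precursor (-0.83), Sncb, a synuclein of nerve endings (-0.83), and Plekhb2 (-0.83). Values above 0.8 were found for 150 of the 929 probe sets (16.1%) with Cd74.

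RT1-Da and RT1-Db1 had overlapping neighbours. RT1-Da was most like Cxcl16 (0.97), Gfap, the astrocyte filament (0.97), Spp1, osteopontin (0.96), Lyz2, a myeloid lysozyme (0.95), Selenbp1, Abi3bp, Tyrobp and Hspa2, and least like Vsnl1 (-0.80), Rnf227, Cygb and Nefl. RT1-Db1 was most like Scara3 (0.96), the inhibitory immunoglobulin receptor Fcgr2b (0.95), Nbl1, PCOLCE2, Slc12a7, Vim, Rbp4 and Selenbp1, and least like Sncb (-0.88), Cygb, Nefl and the serotonin receptor gene Htr2c. Above 0.8 lay 20.02% of probe sets for RT1-Da and 17.5% for RT1-Db1.

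The other probe sets of RT1-Ba and RT1-Bb had few like genes, with 1.51% of probe sets above 0.8 for RT1-Ba 1377334_at and 1.08% for each RT1-Bb probe set. RT1-Ba 1377334_at was most like Pgpep1 (0.96), followed by the complement protease C1s (0.90), Acss3, Igf1r, Cmbl, Col12a1, Shisa3 and Gpx1, and least like Rsrp1 (-0.87), Oxt, the oxytocin precursor (-0.81), Esyt2 and Nefl. Pgpep1 stood at 8.95, 8.88, 8.79 and 8.84 in the noodle-diet rats and at 8.95, 8.87, 8.80, 8.78 and 8.81 in the control-diet rats, a narrow spread with noodle-diet rat 1 and control-diet rat 2 on top. RT1-Bb 1371033_at was most like RT1-CE16 (0.94), Fah, an enzyme of tyrosine breakdown (0.92), Tspan2 (0.89), Septin4, Gna12, Bcas1, Anks1b and RT1-S3 (0.81), and least like Ahi1 (-0.90), Pfdn6, Ate1 and Pcnx4. Of the 33 probe sets past 0.8 in either direction for RT1-Bb 1371033_at, 5 (15.2%) lay on the class II chromosome, against 33 of the 929 (3.55%). These were Pfdn6 (-0.88), RT1-T24-3 (-0.85) and Marcks (-0.81), which ran opposite, and RT1-S3 and RT1-CE16, and this count was chosen after the values were seen. Pfdn6 lies 23 protein-coding genes from RT1-Bb, RT1-CE16 80 and RT1-S3 110. The distances of RT1-T24-3 and Marcks were not read, so nearness to RT1-Bb is not shown for them.

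Markers of other cells that a hypothalamus block can hold were set beside Cd74. Over all 1223 variable probe sets the median r with Cd74 was 0.30. Of 12 measured markers of meninges and fibroblasts 11 were variable, with a median r of 0.87 and 7 above 0.8, among them Igf2 (0.92), the sulfate transporter Slc13a4 (0.92), the collagen Col1a2 (0.91) and the anion transporter Slc22a6 (0.89). The other variable ones were Aldh1a2, Col1a1 (0.87 each), Ogn (0.86), Col3a1 (0.75), Pdgfra (0.71), Lum (0.65) and Dcn (0.45). The mean level of this list ran from 6.96 to 8.04 in noodle-diet rats and from 6.88 to 7.90 in control-diet rats, and none of the 12 passed the diet comparison. Of 15 measured microglia markers 6 were variable, with a median r of 0.63. Tyrobp was the closest (0.95), the complement genes C1qa, C1qb and C1qc lay at 0.64, 0.64 and 0.63, Tmem119 at 0.56 and the microglial receptor gene P2ry12 at 0.17. C1qa was 8.47 ± 0.17 in noodle-diet rats and 8.73 ± 0.16 in control-diet rats, with an unadjusted limma p of 0.0379 and an adjusted p of 1.0.

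Of 13 measured markers of border macrophages, the class II-bearing cells of meninges and vessels, only Dab2 (0.78) and Maf (0.74) were variable, while Mrc1 and Cd163 were compressed. Of 7 measured monocyte and neutrophil markers, Lyz2 (0.92) and Plac8 (0.90) were variable. All measured markers of dendritic cells (7), B cells (5) and T and NK cells (13) were compressed, so these cells could not be followed. Blood was read on Hbb, a haemoglobin chain (0.83), the variable one of 5 measured erythroid markers. Rgs5 (-0.62), a pericyte gene, was the variable one of 11 measured vessel markers, and Ttr (0.57) and Prlr (-0.34) were the variable ones of 8 choroid plexus markers. Gfap reached 0.94 among 6 variable astrocyte markers whose median was 0.35, with Aqp4 at 0.61, Gja1 at 0.22 and S100b at 0.21. The 9 variable oligodendrocyte markers had a median of 0.40, with Mag at 0.50, Mog at 0.43, Mal at 0.31 and Cldn11 at 0.17. The 13 variable neuron markers of the hypothalamus had a median of -0.28, with Vip at 0.72, Hdc at 0.39, Sst at -0.16 and Trh at -0.48. The mean level of the microglia list was 7.17 to 7.26 in noodle-diet rats and 7.20 to 7.33 in control-diet rats, and that of the border macrophage list 6.39 to 6.49 in noodle-diet rats and 6.39 to 6.45 in control-diet rats. These means include the compressed markers, and only 6 of 15 and 2 of 13 were variable. The narrow ranges therefore do not show that these cells were constant, and cannot be set beside that of the meninges list. The part of these cells in the shared rise and fall of Cd74 and the class II chains was not tested.

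**Figure D5:**
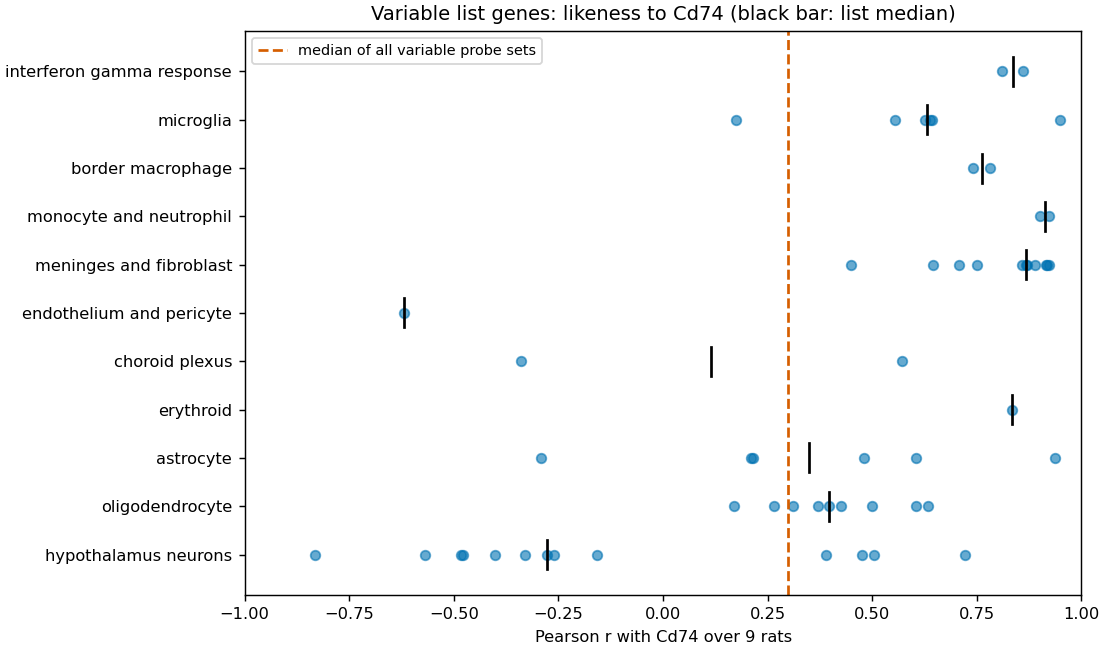
Pearson r with Cd74 over 9 rats (horizontal axis) for each variable gene of the listed markers and of the interferon gamma response, with 1 point per gene, a black bar at the list median and a dashed line at the median of all variable probe sets (0.30). The meninges and fibroblast list has its median at 0.87 and the hypothalamus neuron list at -0.28.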

How the data were processed

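Total RNA of 9 hypothalami, extracted with TRIzol per the labels' protocols, was hybridized as biotin-labelled cRNA. A single table with a log2 value per probe set was deposited by the authors. The log2 scale was read off the values (5.13 to 13.7), because summarization and normalization were not given in the sources used here. Signal over background is not given with the values, so it is not known how far low levels lie above background. The number of arrays limits the precision.

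The values were used as deposited. Leaving out 57 manufacturer controls left 31042 probe sets, of which 20826 carried 1 symbol, 436 several and 9780 none here. The diets were compared with limma 3.58.1 (R 4.3.3; lmFit, eBayes with intensity trend, 2-sided, Benjamini-Hochberg over all probe sets, threshold 0.05), without a block. The script was tested on simulated data. Correlations over rats used all 362880 orders of 9 rats, and the Cd74 differences all splits of the 9 into 4 and 5. With 1 array per rat, a p-value reflects only how these 9 animals vary. Sequences and gene order came from RefSeq tables (GRCr8), and no coordinate was joined to the array. Protein and probe sequences were not used here.

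Named genes were all members, the 8 most and 4 least like each member gene's widest probe set, and up to 4 variable genes per list by lowest p; other list genes named were chosen after their values were seen. Members and lists were chosen with earlier results of these data known, and the limit of 0.05 for variable probe sets after the values were seen.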

Additional observations from a re-analysis of the deposited data

Results flagged for a closer look

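The members' values and the Cd74 differences were searched for single rats far from the rest of their diet group. Of 26 groups, 0 had such a rat by Dixon's 95% critical value, where chance gives about 1.3.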

How the results depend on the processing

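The number of probe sets passing the diet comparison was 0 under every alternative run (quantile or median scaling, no intensity trend, robust variance, array weights, a filter on or floor under low values, variable probe sets alone, a looser threshold, each rat left out). Of 119 diet differences under alternatives 102 kept their sign, and 17 in 6 probe sets turned it. Leaving out 1 rat at a time gave -0.36 to 0.056 for Cd74, -0.25 to 0.14 for RT1-Da, -0.19 to 0.093 for RT1-Db1, -0.26 to 0.023 for RT1-Ba 1370822_at, -0.056 to 0.34 for RT1-Ba 1377334_at and -0.067 to 0.11 for RT1-Bb 1371065_at, which was also -0.047 with array weights. RT1-Bb 1371033_at stayed negative, at -0.66 to -0.056. Of 195 correlations 190 stayed on their side of the threshold and 5 came to pass it. Cd74 with RT1-Ba 1377334_at was 0.76 on deviations from diet means (permutation adjusted p 0.0448) and 0.66 to 0.88 with 1 rat left out. The permutation of these deviations ran across diets without allowing for the diet means taken out, so that p is approximate and not exact. Leaving out 1 rat gave 0.62 to 0.86 for RT1-Da, 0.60 to 0.84 for RT1-Db1 and 0.35 to 0.74 for RT1-Ba 1370822_at, each with RT1-Ba 1377334_at. All 4 passed without control-diet rat 8, and the cause was not tested. Of 66 Cd74 differences, whose alternatives were added after seeing the data, 8 on 4 class II probe sets changed sign. With 1 rat left out these ran from -0.13 to 0.027 for RT1-Da, -0.13 to 0.15 for RT1-Ba 1370822_at, -0.16 to 0.67 for RT1-Bb 1371033_at and -0.37 to 0.024 for RT1-Bb 1371065_at. No paired analysis was possible because the groups share no rat number in the labels, which say that feeding was paired but not which rats were partners. With 4 and 5 rats and unknown upstream normalization, small diet differences and compressed probe sets cannot be resolved.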
